A study of Mus musculus with 12 samples.

Results

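The collagen genes were taken as the rows of the count table whose symbol is Col, a type number, the letter a and a chain number, with at least 10 counts summed over the 12 libraries. Of 44 such symbols 41 reached this minimum, out of 55573 genes in the table, and Col9a1, Col9a2 and Col26a1 did not, with 5, 4 and 3 counts. By the structure of their proteins the 41 genes were sorted into 11 fibrillar collagens, 6 type IV collagens of the basement membrane, 6 type VI collagens of beaded filaments, 7 fibril-associated collagens (FACIT), 2 multiplexins, 3 short-chain network collagens, 4 transmembrane collagens, the anchoring fibril collagen Col7a1 and Col28a1.

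RNA was measured in cultured mouse adipocytes. They were grown from the stromal vascular fraction of subcutaneous fat, the mixed cells left once the mature adipocytes have been removed, and then induced to differentiate. Donors on a C57BL/6 background (C57BL/6 J in the methods) carried 1 form of PPARγ on both alleles: the wild type (WT), PPARγ T166A (TA), whose alanine cannot be phosphorylated at that site, or PPARγ T166D (TD), whose aspartate mimics the phosphorylated threonine. Each genotype had 4 libraries of cells at day 8, all after 4 days in induction medium with 850 nM insulin, 1 nM T3, 0.5 mM IBMX, 125 nM indomethacin and dexamethasone, which the labels give as 5 mM and the methods as 5 μM. PPARγ is the nuclear receptor that drives fat cell differentiation, and the mutations were carried by every cell of the animal, so that preadipocytes and any other cells of the culture carried them as well. The labels do not say whether the 4 libraries of a genotype came from separate animals or cultures, so p-values measure the spread between these libraries only.

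Collagens are secreted trimers of α chains wound into a triple helix. Fibrillar collagens I, III and V form the banded fibrils of the interstitial matrix, type IV forms the sheet that surrounds each adipocyte, and type VI forms filaments that link them and are abundant in adipose tissue. Preadipocytes lay down a fibrillar matrix and replace it with a basement membrane as they fill with lipid. The chains are hydroxylated and folded in the endoplasmic reticulum, exported, trimmed by propeptidases, cross-linked by lysyl oxidases and bound by integrins and discoidin receptors.

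The 250 bases before the annotated start of Col3a1, Col15a1 and Col5a3 are shown because Col3a1 had its highest mean in TD, Col15a1 had its highest mean in TA, and Col5a3 was called between TD and TA but not against WT. The sequences are from RefSeq on GRCm38.p6 and run 5′ to 3′ on the strand of the gene, with matches on either strand in capitals to 6 motifs: the CCAAT box, the GC box GGGCGG, the TATA box TATAAA, the nuclear receptor half-site AGGTCA, the AP-1 motif TGANTCA and the Smad motif CAGAC. The windows lie at chr1:45311288-45311537 on the + strand, chr4:47207762-47208011 on the + strand and chr9:20815068-20815317 on the - strand. None overlaps an annotated exon of its own gene, and exons of other genes were not looked at.
Col3a1: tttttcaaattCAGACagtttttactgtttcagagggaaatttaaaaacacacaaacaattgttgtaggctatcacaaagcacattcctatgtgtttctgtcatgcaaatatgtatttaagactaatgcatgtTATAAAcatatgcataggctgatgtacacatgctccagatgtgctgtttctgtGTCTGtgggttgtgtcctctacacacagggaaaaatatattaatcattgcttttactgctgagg
Col15a1: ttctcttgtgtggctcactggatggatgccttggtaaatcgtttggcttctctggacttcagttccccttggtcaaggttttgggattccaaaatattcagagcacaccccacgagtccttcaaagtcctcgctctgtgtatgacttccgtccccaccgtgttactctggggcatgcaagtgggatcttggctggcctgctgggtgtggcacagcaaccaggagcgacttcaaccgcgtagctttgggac
Col5a3: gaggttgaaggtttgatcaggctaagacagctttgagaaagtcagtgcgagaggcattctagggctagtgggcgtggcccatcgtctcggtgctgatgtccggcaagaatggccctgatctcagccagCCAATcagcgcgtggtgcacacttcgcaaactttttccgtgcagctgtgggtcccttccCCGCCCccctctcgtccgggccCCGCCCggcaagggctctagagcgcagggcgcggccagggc
Col3a1 held TATAAA from 117 to 112 bases before the start and CAGAC on each strand, Col5a3 held CCAAT and GGGCGG on the opposite strand at 2 places, and Col15a1 held none of the 6 motifs. Promoter windows were found for 33 of the 41 genes (35 windows). GGGCGG was in 60.0% of the collagen windows and in 32.74% of 32851 mouse promoter windows of the same length. The other shares were 34.29% against 33.85% for CCAAT, 14.29% against 12.37% for TATAAA, 20.0% against 14.02% for AGGTCA, 2.86% against 6.75% for TGANTCA and 42.86% against 42.19% for CAGAC. A match describes the letters of the window and not a bound site.

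The libraries held 16553324 to 20324286 counts, with WT at 18823619 or more and both mutants at 18357864 or fewer. In the test across 15117 genes (edgeR quasi-likelihood with Benjamini-Hochberg adjustment), TD against WT gave 2276 higher and 2142 lower genes. With scaling by library totals alone these counts were 2840 and 1558. The summed level of 10 adipocyte markers was 14046 to 16021 CPM (TMM-normalised counts scaled to a common library size) in TD against 19955 to 22550.4 CPM in WT, and that of 11 fibroblast and preadipocyte markers was 1198 to 1590.3 CPM in TD against 781 to 875 CPM in WT. Mitochondrially encoded genes took 4.92% to 5.88% of the counts of a WT library, against 2.74% to 4.5% for TA and 2.86% to 3.57% for TD.

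Collagen genes took a larger share of the RNA in TD than in WT. The 41 genes held 3.02% ± 0.333 of all gene counts for WT, 3.48% ± 0.53 for TA and 4.73% ± 0.524 for TD (mean ± SD, n = 4 libraries). The WT libraries stood at 2.65%, 3.39%, 3.19% and 2.86%, the TA libraries at 3.51%, 2.79%, 4.09% and 3.53%, and the TD libraries at 4.1%, 4.55%, 4.95% and 5.32%. Each TD library was above each WT and TA library, and the TA libraries overlapped those of WT. The margin between TD and TA was narrow, with TD replicate 1 at 4.1% and TA replicate 3 at 4.09%. Fibrillar chains made up 48.9% ± 2.06 of the collagen counts for WT, 53.3% ± 4.86 for TA and 57% ± 2.73 for TD, and type IV chains made up 37.2% ± 1.64, 30.8% ± 4.07 and 29.2% ± 2.5. These shares are given as a description, without a test. In these bulk samples a change in the number of collagen-making cells and a change in the collagen RNA of each cell cannot be told apart.

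**Figure D1:**
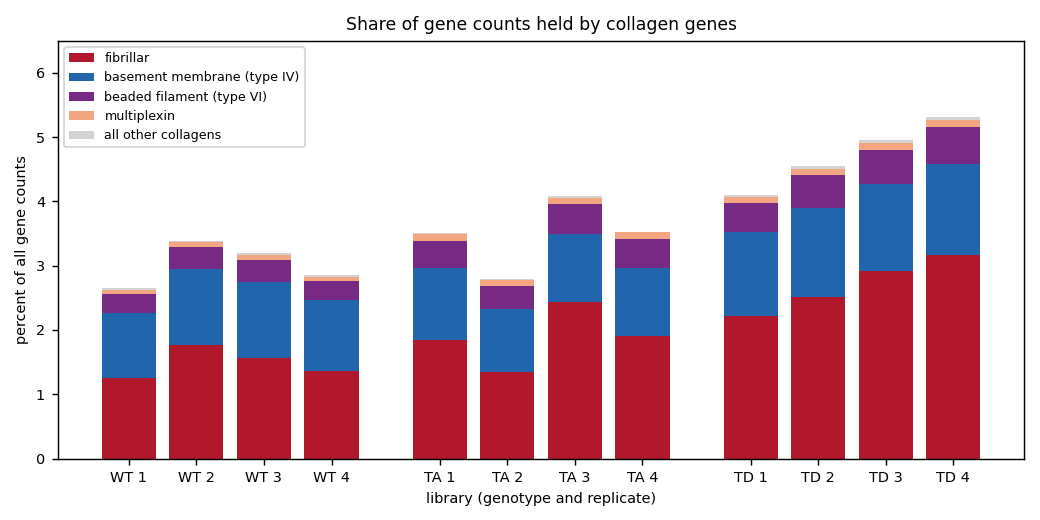
Bars give the percent of all gene counts held by collagen genes in each library (x axis, genotype and replicate), stacked by class. The total ran from 2.65% to 3.39% in WT, from 2.79% to 4.09% in TA and from 4.1% to 5.32% in TD, and most of the height of each bar was fibrillar and type IV chains.

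Per kilobase of transcript, Col3a1 and Col4a1 led in WT. The mean levels were 1285 ± 203 CPM per kb for Col3a1, 1105 ± 65.3 for Col4a1, 622 ± 34.1 for Col4a2, 478 ± 50 for Col1a1, 421 ± 55.2 for Col1a2 and 301 ± 7.65 for Col6a1 (mean ± SD, n = 4). The WT ranges of Col3a1 (1062 to 1526 CPM per kb) and Col4a1 (1012 to 1159.6 CPM per kb) overlapped, as did those of Col1a1 (422 to 539) and Col1a2 (359 to 489.7), whereas Col4a1 and Col4a2 did not overlap. In TD the level of Col3a1 was 2479 ± 456 CPM per kb and no longer overlapped that of Col4a1 at 1293 ± 15.6. In the same TD libraries the mean of Col1a1 at 790.2 ± 154 was above that of Col4a2 at 725 ± 54.9 in CPM per kb, with overlapping ranges. Below the leading 13 genes the levels dropped in WT from 63.6 ± 5.75 CPM per kb for Col15a1 to 15.2 ± 1.7 for Col12a1 and to 0.0262 ± 0.00668 for Col6a5.

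Of the 41 genes, 33 passed the filter on low counts and were tested. In TD 16 of the 33 were higher than in WT and 3 were lower, where 15.1% of all genes tested were called higher and 14.2% lower. In TA 7 were higher than in WT and 1 was lower, against 6.72% and 4.41% of all genes tested. Between the mutants 9 were higher in TD than in TA and 1 was lower, against 7.33% and 9.37% of all genes tested. The median log2 fold change of the 33 genes was 0.37 for TD over WT, 0.19 for TA over WT and 0.16 for TD over TA, beside 0.0112, -0.00555 and 0.0234 over all genes tested. These counts include Col6a5, which passed the filter through the mutants alone. With an absolute log2 fold change above 1 also required the counts fell to 3, 1 and 0, against 5.26%, 2.80% and 2.39% of all genes tested, and Col6a5 was among the 3 and was the 1. The 3 genes lower in TD than in WT fell to 1 without WT replicate 2 or TD replicate 2, and the 1 gene lower in TA than in WT became 2 without WT replicate 1 or TA replicate 4. The count between the mutants fell to 6 without TA replicate 2 and to 5 without TD replicate 3 or TD replicate 4, and that of TA against WT to 5 with only those genotypes in the fit. The 2 comparisons with WT share the WT libraries and are given side by side.

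**Figure D2:**
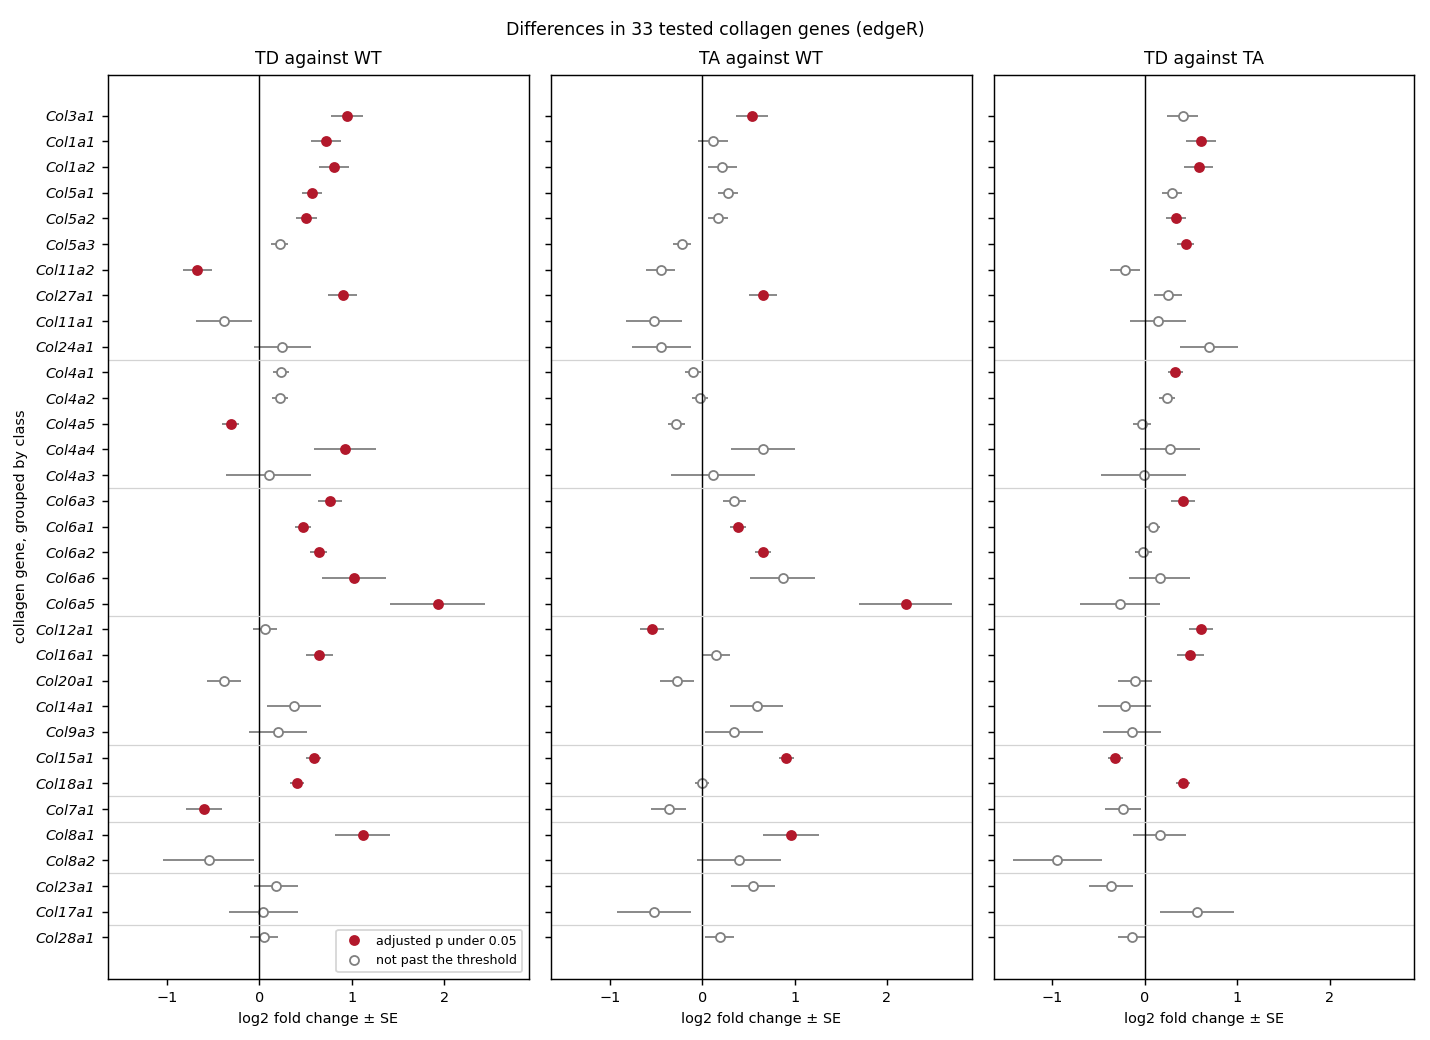
Points give the log2 fold change of each of the 33 tested genes with its SE, filled where the adjusted p was under 0.05, for each pair of genotypes. The type VI genes lay to the right of 0 against WT in both mutants, and the filled points to the left of 0 against WT were Col12a1 in TA and Col11a2, Col4a5 and Col7a1 in TD, the last 3 of which lay to the left, unfilled, in TA as well.

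Of the 10 tested fibrillar collagens, 6 (Col3a1, Col1a1, Col1a2, Col5a1, Col5a2 and Col27a1) were higher in TD than in WT, 1 (Col11a2) was lower and 3 (Col5a3, Col11a1 and Col24a1) were not called, and in TA Col3a1 and Col27a1 were the 2 that passed the test. Over all genes tested, 15.1% were called higher and 14.2% lower in TD, and 6.72% higher in TA. Col3a1, the chain of the thin reticular fibrils, was the most abundant fibrillar collagen. Its levels were 5911, 8491, 7589 and 6604 CPM in WT, 10358, 7394, 13352 and 10519 CPM in TA and 10969.9, 12509, 15044 and 16645 CPM in TD. All TD libraries lay above all WT libraries, whereas TA replicate 2 lay within the WT range and TA replicate 3 within the TD range. TD exceeded WT by 0.95 ± 0.17 (SE) on the log2 scale (edgeR adjusted p = 0.000783) and TA exceeded WT by 0.54 ± 0.169 (edgeR adjusted p = 0.0496), while TD and TA differed by 0.41 ± 0.169 (edgeR adjusted p = 0.111). The TA call sat at the threshold and was lost under 12 of 19 other settings, with an adjusted p of up to 0.151.

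Col1a1 and Col1a2 encode the chains of type I collagen, the main load-bearing fibril. Col1a1 stood at 2502, 3198, 2925 and 2723 CPM in WT, 3142, 2130.2, 3934 and 3092 CPM in TA and 3646, 4222, 5241 and 5633 CPM in TD. Col1a2 stood at 1922, 2619, 2325 and 2137 CPM in WT, 2700, 1813, 3463 and 2522 CPM in TA and 3212, 3752, 4185 and 4589 CPM in TD. For both chains every TD library was above every WT library, and the TA libraries spread from below the WT range to within the TD range. Against WT the log2 fold change in TD was 0.72 ± 0.164 for Col1a1 (edgeR adjusted p = 0.00373) and 0.81 ± 0.162 for Col1a2 (edgeR adjusted p = 0.00169), and in TA it was 0.12 ± 0.163 (adjusted p = 0.72) and 0.22 ± 0.161 (adjusted p = 0.435). Against TA the difference was 0.61 ± 0.163 for Col1a1 (edgeR adjusted p = 0.0183) and 0.58 ± 0.161 for Col1a2 (edgeR adjusted p = 0.021). These calls were lost without TD replicate 3 or TD replicate 4 (adjusted p = 0.0608 and 0.0705 for Col1a1, 0.06 and 0.0752 for Col1a2), and that of Col1a2 also without TA replicate 2 (adjusted p = 0.0531).

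Type V collagen nucleates the fibrils of type I and III, and its 3 chains were all abundant. Col5a1 stood at 913, 1175, 1040.3 and 974 CPM in WT, 1314, 1037, 1423 and 1201 CPM in TA and 1333, 1475, 1638 and 1623 CPM in TD. Col5a2 stood at 777, 981, 910.1 and 879.6 CPM in WT, 998, 814, 1176 and 1002 CPM in TA and 1100.4, 1265, 1306 and 1392 CPM in TD. Both chains were higher in every TD library than in any WT library, by a log2 fold change of 0.57 ± 0.108 for Col5a1 (edgeR adjusted p = 0.0012) and 0.51 ± 0.11 for Col5a2 (edgeR adjusted p = 0.00257). Against TA, Col5a2 was higher in TD by 0.34 ± 0.109 on the log2 scale (edgeR adjusted p = 0.0411, lost under 9 of 19 other settings), and the difference of Col5a1 was 0.29 ± 0.108 (adjusted p = 0.0787). Col5a3, the chain of the less common type V trimer, stood at 783, 938, 869 and 697 CPM in WT, 668, 701, 669.6 and 779.6 CPM in TA and 960.1, 1021, 980.3 and 867 CPM in TD. The TD libraries were all above the TA libraries, and the WT libraries overlapped both. On the log2 scale TD exceeded TA by 0.44 ± 0.0948 (edgeR adjusted p = 0.00518), and the distances from WT were 0.22 ± 0.0946 for TD (adjusted p = 0.0927) and -0.22 ± 0.0947 for TA (adjusted p = 0.151).

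The remaining fibrillar collagens were expressed at a far lower level. Col27a1, a fibrillar chain best known from cartilage, rose from 10.5 ± 1.6 CPM in WT to 16.5 ± 3.87 CPM in TA and 19.6 ± 2.03 CPM in TD (mean ± SD, n = 4), a log2 fold change of 0.66 ± 0.155 in TA (edgeR adjusted p = 0.0112) and 0.9 ± 0.154 in TD (edgeR adjusted p = 0.000562). Col11a2, a chain of the cartilage fibril, was the fibrillar gene that fell in TD, from 20.2 ± 2.66 to 12.7 ± 2.2 CPM (log2 fold change -0.67 ± 0.16, edgeR adjusted p = 0.00523), and stood at 14.8 ± 3.53 CPM in TA (adjusted p = 0.0818). Col11a1 (4.88 to 7.02 CPM as genotype means) and Col24a1 (1.32 to 2.15 CPM) passed no test. Col2a1, the main cartilage collagen, had 0 to 6 counts per library and was not tested. Of the 7 cartilage and bone markers, 3 passed the filter. Sox9, the transcription factor of cartilage cells, was higher in TD (log2 fold change 0.76, edgeR adjusted p = 0.00758), and Comp, a cartilage matrix protein, was higher in TD (0.81, edgeR adjusted p = 0.0188) and TA (1.13, edgeR adjusted p = 0.00571). Runx2 was not called against WT, and the aggrecan gene Acan, a defining marker, had 0 or 1 count in each library.

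**Figure D3:**
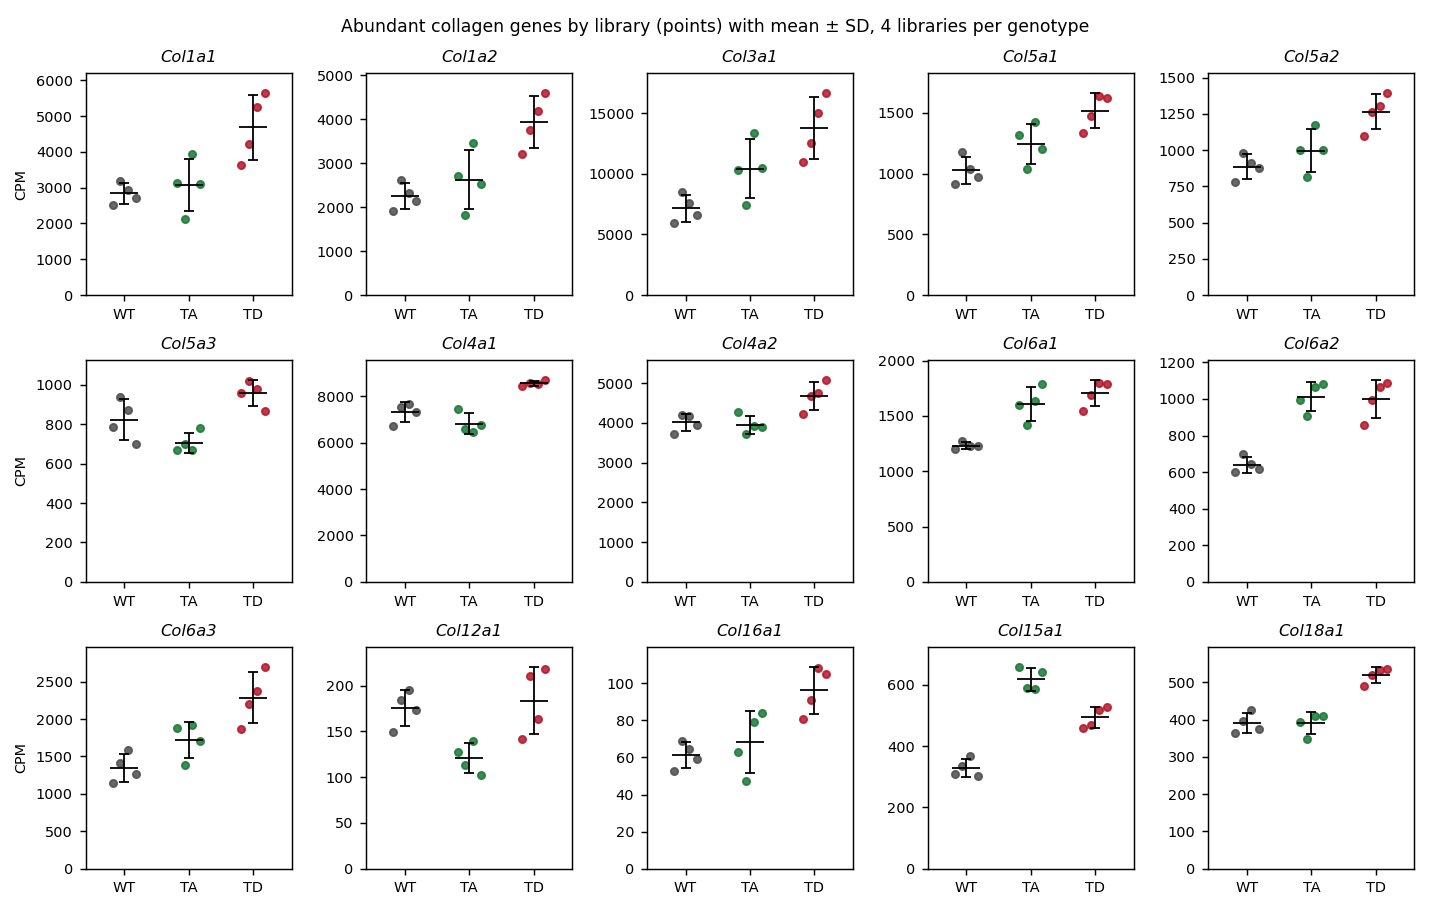
Each panel gives the level of a gene in CPM (y axis, from 0) for the 4 libraries of WT, TA and TD as points, with the mean and SD in black. Col1a1, Col1a2 and Col3a1 have all TD points above all WT points and a wide TA group, Col6a1 and Col6a2 have both mutants above WT, and Col15a1 has TA above TD above WT without overlap.

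The abundant type IV collagens of the basement membrane passed the test in neither mutant against WT. Col4a1 and Col4a2, whose chains form the common α1α1α2 network, are transcribed head to head from start sites 21 bases apart on chromosome 8. Col4a1 stood at 6697, 7541, 7671 and 7329.7 CPM in WT, 7456, 6587, 6452 and 6748 CPM in TA and 8437, 8562, 8534 and 8688 CPM in TD. Col4a2 stood at 3725, 4197, 4173 and 3956 CPM in WT, 4261, 3719, 3918 and 3884 CPM in TA and 4210.4, 4675, 4739 and 5071 CPM in TD. For both genes each TD library exceeded each WT library, by a narrow margin for Col4a2, and WT and TA overlapped. Relative to WT, TD differed on the log2 scale by 0.23 ± 0.0856 for Col4a1 (edgeR adjusted p = 0.0563) and by 0.22 ± 0.0868 for Col4a2 (edgeR adjusted p = 0.0673), neither past the threshold. Col4a1 passed it under 6 of 19 other settings and Col4a2 under 4 of 19, DESeq2 among them for both (DESeq2 adjusted p = 0.00323 and 0.0135). Against TA, Col4a1 was higher in TD by 0.33 ± 0.0856 on the log2 scale (edgeR adjusted p = 0.0155), and the difference of Col4a2 was 0.24 ± 0.0868 (adjusted p = 0.0637). In TA against WT the differences were -0.1 ± 0.0855 and -0.024 ± 0.0867 on the log2 scale (adjusted p = 0.51 and 0.903).

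The other type IV chains serve specialised basement membranes and were scarce here. Col4a5 stood at 30.4, 38.4, 32.9 and 35.2 CPM in WT, 30.9, 26.2, 28.6 and 27 CPM in TA and 26.1, 24.6, 29.1 and 30.4 CPM in TD, lower in TD than in WT by 0.31 on the log2 scale (edgeR adjusted p = 0.019), with the highest TD library just under the lowest WT library. Col4a4 was higher in TD, at 1.66 ± 0.254 CPM against 0.867 ± 0.242 CPM in WT (mean ± SD, n = 4; log2 fold change 0.93 ± 0.337, edgeR adjusted p = 0.0484). Col4a3, which starts 72 bases from Col4a4 on the opposite strand, was at 0.617 ± 0.35 CPM in WT and 0.672 ± 0.173 CPM in TD (adjusted p = 0.893). Its count is uncertain, since 563 bases of its exons are shared with C430014B12Rik on the other strand and the strand setting of the counting is not stated. Col4a6 had 0 to 3 counts per library.

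Of the 5 tested type VI genes, Col6a5 reached the test through the mutants alone, and of the other 4 all were called higher in TD and 2 in TA than in WT. Over all genes tested, 15.1% were called higher in TD and 6.72% in TA. Col6a1 and Col6a2 encode the short chains of the type VI monomer. Col6a1 stood at 1199.7, 1275, 1227 and 1229 CPM in WT, 1601, 1415, 1638 and 1786 CPM in TA and 1545, 1687, 1796 and 1793 CPM in TD. Col6a2 stood at 600.4, 701, 643 and 619.9 CPM in WT, 995, 908, 1067 and 1079.9 CPM in TA and 859, 993, 1063 and 1086 CPM in TD. For both genes all libraries of both mutants were above all WT libraries and the mutants overlapped each other. Relative to WT, Col6a1 changed on the log2 scale by 0.47 ± 0.0845 in TD (edgeR adjusted p = 0.000809) and 0.39 ± 0.0845 in TA (edgeR adjusted p = 0.00702), and Col6a2 changed by 0.64 ± 0.0902 in TD (edgeR adjusted p = 0.000184) and 0.66 ± 0.0902 in TA (edgeR adjusted p = 0.000162). Between TD and TA they differed by 0.083 ± 0.0844 and -0.017 ± 0.0897 on the log2 scale (adjusted p = 0.542 and 0.918).

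Col6a3, the long chain that completes the monomer and the source of the cleaved peptide endotrophin, was called higher in TD than in both WT and TA. It stood at 1140, 1409.8, 1579.7 and 1262 CPM in WT, 1875, 1387, 1922 and 1709 CPM in TA and 1873, 2196, 2377 and 2693 CPM in TD. Every TD library was above every WT library, and TA replicate 2 lay within the WT range. TD exceeded WT by 0.76 ± 0.13 on the log2 scale (edgeR adjusted p = 0.000557), TA differed from WT by 0.35 ± 0.129 (adjusted p = 0.0903), and TD exceeded TA by 0.41 ± 0.129 (edgeR adjusted p = 0.0406, lost under 7 of 19 other settings).

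Col6a4, Col6a5 and Col6a6 encode chains that can stand in for Col6a3 and lie side by side on chromosome 9. Col6a5 had 3, 5, 6 and 5 counts in the WT libraries, 26, 7, 22 and 25 in TA and 7, 12, 21 and 28 in TD. Each mutant library was above each WT library, and the gene passed the filter on low counts through the mutants alone, so it could be tested only because it differed. Its fitted log2 fold changes, 1.93 ± 0.516 in TD and 2.2 ± 0.508 in TA, are given as a description, without a test. Col6a6 stood at 0.986, 1.24, 0.694 and 0.932 CPM in WT, 1.99, 0.861, 2 and 2.17 CPM in TA and 2.38, 1.56, 1.17 and 2.76 CPM in TD. TD replicate 3 overlapped the WT range, and the log2 fold change was 1.02 ± 0.346 in TD (edgeR adjusted p = 0.0357, lost under 6 of 19 other settings) and 0.87 ± 0.349 in TA (adjusted p = 0.127). Col6a4 had 1, 6, 7 and 8 counts in the TA libraries and 4, 3, 6 and 4 in the TD libraries, and 0 in all WT libraries, too few for the test.

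The fibril-associated collagens bind to the surface of fibrils, and 2 of them were abundant enough to be given library by library. Col12a1, which decorates type I fibrils, stood at 149.5, 184, 195 and 173 CPM in WT, 128, 113, 139.8 and 102 CPM in TA and 142, 210, 164 and 218 CPM in TD. All TA libraries were below all WT and all TD libraries, which overlapped each other. TA lay below WT, at -0.54 ± 0.13 on the log2 scale (edgeR adjusted p = 0.0127), TD exceeded TA by 0.61 ± 0.13 (edgeR adjusted p = 0.00521), and TD differed from WT by 0.065 ± 0.129 (adjusted p = 0.747). It was the 1 collagen gene called lower in TA than in WT. Col16a1, found at the edges of fibrils and microfibrils, stood at 52.5, 68.7, 64.8 and 59.4 CPM in WT, 62.7, 47.3, 79 and 83.8 CPM in TA and 80.7, 91, 108 and 105 CPM in TD. Each TD library was above each WT library, by 0.65 ± 0.146 on the log2 scale (edgeR adjusted p = 0.00366), and TA spread across both ranges (TD against TA 0.49 ± 0.146, edgeR adjusted p = 0.0294, lost under 5 of 19 other settings).

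Among the scarce fibril-associated genes, Col14a1, Col9a3 and Col20a1 passed no test, with genotype means of 2.45 to 3.67 CPM, 1.2 to 1.53 CPM and 8.43 to 11 CPM. The count of Col20a1 is uncertain, since it shares 79 exonic bases on its strand with BX649560.1, which had the higher mean count. That of Col9a3 is uncertain as well, with 234 bases shared with Tcfl5 on the other strand. Col19a1 had 0 or 1 count in WT, 1 to 4 in TA and 0, 6, 16 and 0 in TD, and Col22a1 had 1 to 11 counts per library.

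The multiplexins Col15a1 and Col18a1 carry heparan or chondroitin sulphate chains at the outer face of basement membranes, and their C-terminal fragments are restin and endostatin. Col15a1 stood at 308, 335, 368 and 304 CPM in WT, 658, 589, 585 and 641 CPM in TA and 459, 470.3, 519 and 527 CPM in TD. The 3 genotypes did not overlap, with TA above TD and TD above WT. Relative to WT the rise on the log2 scale was 0.91 ± 0.0824 for TA (edgeR adjusted p = 2.93e-06) and 0.59 ± 0.082 for TD (edgeR adjusted p = 0.000176), and TD stood at -0.32 ± 0.0817 relative to TA (edgeR adjusted p = 0.0132). Col15a1 was the 1 collagen gene called lower in TD than in TA, and all 3 of its calls held under all 19 other settings. Col18a1 stood at 365, 395, 425 and 375 CPM in WT, 393, 349, 409.6 and 411 CPM in TA and 490.2, 519.5, 534 and 536 CPM in TD. WT and TA shared a range and every TD library was above it. TD exceeded WT by 0.41 ± 0.0758 on the log2 scale (edgeR adjusted p = 0.000873) and TA by 0.41 ± 0.0758 (edgeR adjusted p = 0.0018), and TA differed from WT by 0.003 ± 0.0758 (adjusted p = 0.986).

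The remaining collagens had low counts. Col8a1, a short-chain collagen of vessel walls and Descemet's membrane, stood at 0.83, 1.59, 0.892 and 1.15 CPM in WT, 1.99, 2.4, 2.73 and 1.61 CPM in TA and 1.48, 3.29, 2.39 and 2.58 CPM in TD. The TA libraries were all above WT, TD replicate 1 fell within the WT range, and the log2 fold change was 1.12 ± 0.297 in TD (edgeR adjusted p = 0.0099) and 0.96 ± 0.3 in TA (edgeR adjusted p = 0.049, lost under 11 of 19 other settings). Col7a1, the anchoring fibril of skin, was lower in TD, at 9.72 ± 1.37 CPM against 14.8 ± 2.74 CPM in WT (log2 fold change -0.6 ± 0.192, edgeR adjusted p = 0.0264). WT replicate 3, at 10.7 CPM, lay within the TD range of 7.74 to 10.8 CPM. Col8a2, Col17a1, Col23a1 and Col28a1 passed no test, and Col10a1, Col13a1 and Col25a1 had 0 to 7 counts per library and were not tested. For Col10a1 the 18 shared bases with the more abundant Nt5dc1 on the other strand leave the source of its reads uncertain.

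The ratios between chains of the same trimer or fibril were compared across the genotypes. The log2 ratio of Col3a1 to Col1a1 counts was 1.24, 1.41, 1.38 and 1.28 in WT, 1.72, 1.8, 1.76 and 1.77 in TA and 1.59, 1.57, 1.52 and 1.56 in TD. The 3 genotypes did not overlap, and TA had the highest ratio although its mean levels of both genes lay between those of WT and TD. Per transcript length this was 2.67 ± 0.147 Col3a1 to each Col1a1 in WT, 3.61 ± 0.0765 in TA and 3.14 ± 0.0616 in TD (mean ± SD, n = 4). The log2 ratio differed from WT by 0.436 for TA and by 0.234 for TD, and TD stood at -0.201 relative to TA. Each reached the smallest p that an exact two-sided permutation of 4 against 4 libraries can give, p = 0.0286, and 0.0571 after adjustment over the 12 ratio tests.

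The log2 ratio of Col6a1 to Col6a2 was 1, 0.86, 0.93 and 0.99 in WT, 0.69, 0.64, 0.62 and 0.73 in TA and 0.85, 0.76, 0.76 and 0.72 in TD. It was below WT in all libraries of both mutants, by -0.277 in TA and -0.173 in TD (each exact permutation p = 0.0286, adjusted p = 0.0571), and TA and TD differed by 0.105 (exact permutation p = 0.0571, adjusted p = 0.0857). Per transcript length the ratio was 1.86 ± 0.079 for WT, 1.53 ± 0.0507 for TA and 1.65 ± 0.0604 for TD. The ratio of Col4a1 to Col4a2 differed by -0.078 in TA against WT on the log2 scale (exact permutation p = 0.0286, adjusted p = 0.0571) and by 0.01 in TD against WT (exact permutation p = 0.857, adjusted p = 0.857). For Col1a1 to Col1a2 the differences were -0.105 in TA (exact permutation p = 0.0571, adjusted p = 0.0857) and -0.094 in TD (exact permutation p = 0.114, adjusted p = 0.152). With 6 of the 12 tests at the smallest possible p, none passed 0.05 once adjusted.

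**Figure D4:**
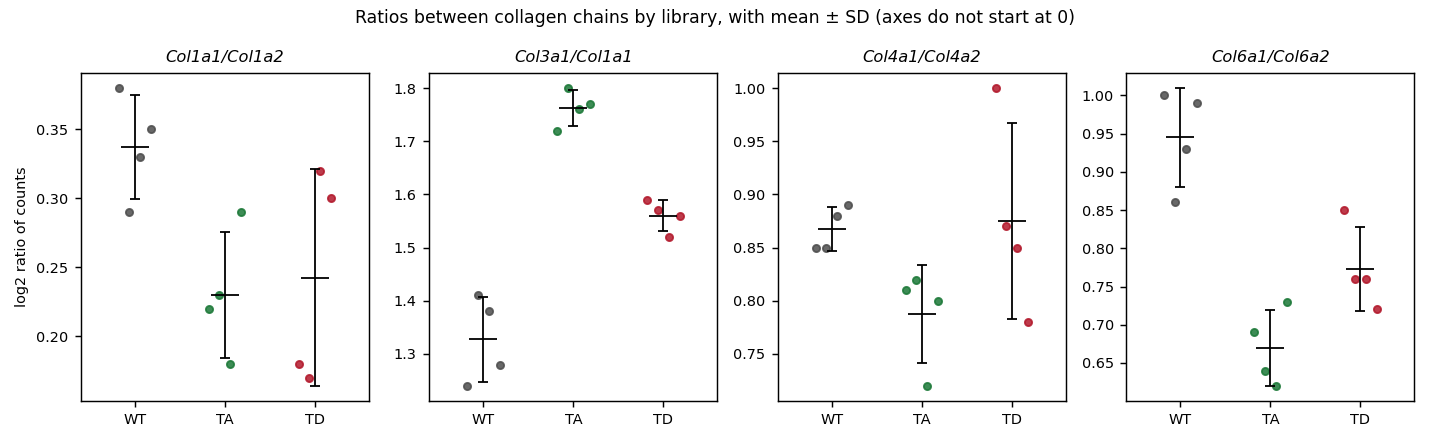
Points give the log2 ratio of counts of each pair of chains in each library of WT, TA and TD, with the mean and SD in black, on axes that do not start at 0. Col3a1/Col1a1 separates the 3 genotypes, with TA at 1.72 to 1.8 above TD at 1.52 to 1.59 and WT at 1.24 to 1.41, and Col6a1/Col6a2 is highest in WT.

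The genes that make, trim and cross-link collagen were looked at beside the chains. Their counts stand beside the shares of all genes tested that were called, 15.1% higher and 14.2% lower in TD, 6.72% higher and 4.41% lower in TA, each against WT. For TD against TA these shares were 7.33% higher and 9.37% lower. Of 20 tested genes for chain modification and folding, 13 were higher and none lower for TD relative to WT, 6 higher and 1 lower for TA, and 3 were higher in TD than in TA. The largest rise in TD was that of Plod2, the lysyl hydroxylase of the telopeptides, from 70.5 to 134 CPM as genotype means (log2 fold change 0.93, edgeR adjusted p = 0.000351), and Plod2 was also the largest rise in TA (0.64, edgeR adjusted p = 0.00964). Tmem38b, an ion channel of the endoplasmic reticulum, was the gene that fell in TA (-0.2 on the log2 scale, edgeR adjusted p = 0.0439). For export and propeptide cleavage, 8 of 13 were higher in TD than in WT and 3 in TA. Between the mutants 4 were higher in TD and 1 was lower. Tll1, a tolloid protease that cuts the C-propeptide, rose most in TD (log2 fold change 1.36, edgeR adjusted p = 0.00207), and Pcolce2, an enhancer of that cut, rose most in TA (1.31, edgeR adjusted p = 0.000169).

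All 7 cross-linking enzymes were called between TD and TA: 6 were higher in TD and 1 was lower, against 7.33% and 9.37% of all genes tested. Lox, the lysyl oxidase with the highest counts, was at 2289.6 CPM in WT, 1832 CPM in TA and 2789.9 CPM in TD as genotype means, and had the largest difference between the mutants (log2 fold change 0.61, edgeR adjusted p = 0.00217). Tgm2, a transglutaminase, fell in TA by 0.8 on the log2 scale (edgeR adjusted p = 2.07e-05) and in TD by 0.37 (edgeR adjusted p = 0.00516). Pxdn, the peroxidase that makes the sulfilimine bonds of type IV collagen, rose in TA relative to WT (0.68 on the log2 scale, edgeR adjusted p = 9.87e-05), and TD stood below TA (-0.41, edgeR adjusted p = 0.00496). Against WT, 5 of the 7 were higher and 1 lower in TD, and 1 was higher and 1 lower in TA.

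Of 12 tested regulators of fibril growth, 10 were higher in TD and 6 in TA than in WT and none was lower. Between the mutants 3 were higher in TD and none was lower. Lum, the small proteoglycan lumican, rose most in both, from 64.1 CPM in WT to 155 CPM in TD (log2 fold change 1.27, edgeR adjusted p = 0.000119) and 144 CPM in TA (1.16, edgeR adjusted p = 0.000226). Among 16 basement membrane partners, TD had 10 higher and 1 lower relative to WT, and TA had 2 higher and 1 lower. Of the 2 higher in TA, Lamc3 was at 0.309 CPM in WT and 1.17 CPM in TA as genotype means. It reached the test through the mutants alone, so that count is partly set by the filter. Relative to TA, TD had 7 higher and 1 lower. Lama2, the laminin α2 chain, rose most in TD (log2 fold change 1.08, edgeR adjusted p = 0.00027) and Lamb3, a chain of epithelial laminin, fell (-1.01, edgeR adjusted p = 0.000614). Of 10 collagen receptors, 3 were higher in TD than in WT, none passed in TA, and 5 were higher in TD than in TA, led by Adgrg1, an adhesion receptor for type III collagen (log2 fold change 0.91 in TD against TA, edgeR adjusted p = 0.0141). The median log2 fold change in TD against WT was 0.367 for modification and folding, 0.421 for export and cleavage, 0.524 for cross-linking, 0.687 for fibril regulators, 0.305 for basement membrane partners and 0.311 for receptors, beside 0.0112 over all genes tested. In TA against WT these medians were 0.166, 0.144, 0.176, 0.461, 0.045 and -0.175, beside -0.00555.

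**Figure D5:**
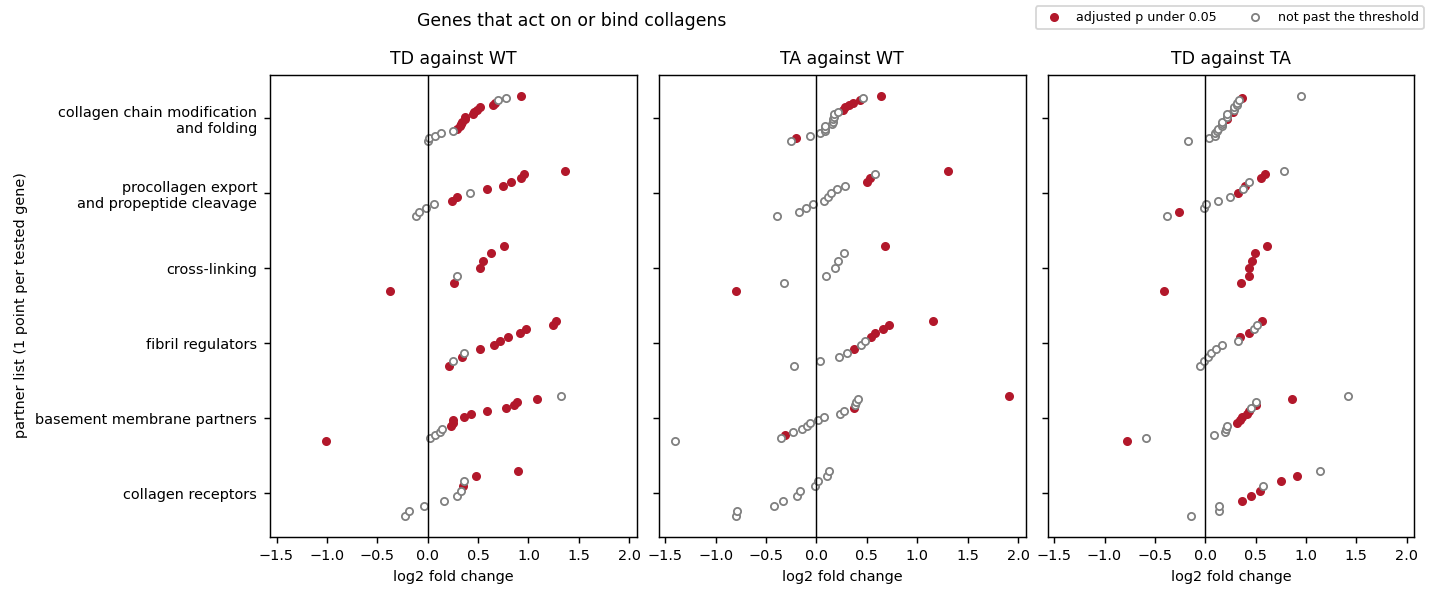
Each point is the log2 fold change of a tested gene (x axis) in 6 lists of genes that act on or bind collagens (y axis), filled where the adjusted p was under 0.05. In TD against WT most filled points lie to the right of 0, and in TA against WT the receptors have no filled point.

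Markers of other cell types are given with their values. Their counts stand beside the calls over all genes tested. For TD against WT, 15.1% of these genes were called up and 14.2% down. For TA against WT the shares were 6.72% up and 4.41% down. Of 10 tested fibroblast and preadipocyte markers, 7 were higher in TD and 4 in TA than in WT. The list stood at 781 to 875 CPM in WT, 924 to 1424 CPM in TA and 1198 to 1590.3 CPM in TD. Cd34 rose most of this list in TD (log2 fold change 1.61, edgeR adjusted p = 0.000271) and Pi16 in TA (1.85, edgeR adjusted p = 0.000502). Of 10 adipocyte markers, 8 were lower in TD than in WT, and in TA 1 was higher and 1 lower. The 8 tested skeletal muscle markers were called higher in TD, and 5 of them in TA. However, Myog, Ckm, Myh3, Tnnt3 and Mylpf had means of 0 to 0.508 CPM in WT, and Myh1 was at 1.23 ± 1.46 CPM (mean ± SD, n = 4). The WT libraries alone would have passed none of these named genes through the filter, so the counts are partly set by it. The list was at 5.55 to 12.9 CPM in WT, 18.5 to 71.9 CPM in TA and 18.8 to 266 CPM in TD, and Myog was at 0 in all WT libraries. Endothelial markers ran from 28.3 to 60.5 CPM in WT, 52.5 to 97.7 CPM in TA and 112 to 142 CPM in TD. Of these 8, 7 were higher in TD and 4 in TA than in WT. Smooth muscle and pericyte markers were at 189 to 203 CPM, 223 to 275 CPM and 215 to 243 CPM. Of these 7, 4 were higher and 1 lower in TD, and 3 were higher and none lower in TA. Macrophage markers were at 273 to 805 CPM, 135 to 588 CPM and 623 to 869 CPM, with 1 of 8 higher in TD and none called in TA, where the median log2 fold change was -0.727. Schwann cell markers reached at most 31.4 CPM, cartilage and bone markers at most 28.8 CPM and epithelial markers at most 4.22 CPM in any library. The part of these cells in the collagen differences was not tested.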

How the data were processed

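The authors sequenced total RNA of 12 libraries on a NovaSeq instrument and aligned the reads to GRCm38 with HISAT2. The submitters' processing notes name bcl2fastq 2.17.1.14, cutadapt 1.9.1, HISAT2 2.0.1 and HTSeq 0.6.1, and the strand setting of the counting is not given in the sources used here. The authors deposited raw counts per gene, as 1 table and again library by library, with equal values in the 12 libraries. Their methods name DESeq2 without a design.

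Genes were kept by edgeR's filterByExpr (minimum count 10, minimum total 15), scaled by TMM and fitted by the quasi-likelihood method to all 12 libraries (edgeR 4.0.16, limma 3.58.1, R 4.3.3), and the genotypes were compared pairwise with two-sided tests. A call is an adjusted p under 0.05, by Benjamini-Hochberg over 15117 genes. CPM are normalised by TMM, and SE is that of the log2 fold change. Levels per kb divide by the length of the principal transcript in GENCODE M21, which held 99.83% of the identifiers. Chain ratios are log2 ratios of counts with 0.5 added, compared by an exact two-sided permutation and adjusted over 12 tests. Counting error is small for the abundant chains and dominates below about 10 counts, and statements on such counts cover counting error only. The fit was tested on simulated data. Alternatives were DESeq2 1.42.0, other scalings, other filters, 2 genotypes in the fit, a replicate block and leaving out each library.

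Values per library are given for members that averaged 50 CPM or more in some genotype and for those called with an absolute log2 fold change above 1. Col4a5 is given by library as well, though it meets neither rule. Other members are given by ranges or by the called value, and from the lists the largest called rise or fall may be named. Members and lists were chosen with earlier results of these data known. Chain sequences of proteins were not used here.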

Additional observations from a re-analysis of the deposited data

Results flagged for a closer look

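In 114 groups of 4 libraries (33 genes and 4 chain ratios in 3 genotypes, and the collagen share), a library far from the other 3 was looked for by Dixon's test, which by chance marks about 1 group in 20, and 2 were found. Col7a1 was lowest in WT replicate 3, at a log2 CPM of 3.43 against 3.98 to 4.07 in the other WT libraries. Col6a6 was lowest in TA replicate 2, at a log2 CPM of -0.0433 against 1.07 to 1.19 in the other TA libraries, and without that library Col6a6 was called in TA against WT (log2 fold change 1.08, edgeR adjusted p = 0.0393).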

How the results depend on the processing

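The counts of collagen genes called stayed within 1.5 times the reported ones under most alternatives. Where an absolute log2 fold change above 1 was also required, they fell to 3 for TD against WT, 1 for TA against WT and 0 for TD against TA, and with only the 2 genotypes compared in the fit 5 were called for TA against WT. Leaving out each library in turn gave 15 to 20 calls for TD against WT, 6 to 10 for TA against WT and 5 to 12 for TD against TA. The 10 genes of most counts were also taken out of the total, with every collagen gene kept in the collagen sum. Relative to that smaller total, the collagen sum was 3.57% in WT, 4.07% in TA and 5.45% in TD. Leaving out a library moved the shares of the full total between 2.9% and 3.14% in WT, 3.28% and 3.71% in TA, and 4.53% and 4.94% in TD.

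Changes of direction were found in differences near 0 that passed no test. Col6a2 in TD against TA was 0.058 with scaling by library totals alone and -0.061 to 0.048 when a library was left out. Col18a1 in TA against WT was -0.0005 with DESeq2's size factors, -0.0051 with library totals alone, -0.0076 without a filter, -0.00047 with DESeq2, and -0.03 to 0.05 when a library was left out. The same range was -0.06 to 0.34 for Col6a6 and -0.021 to 0.34 for Col8a1 in TD against TA, -0.027 to 0.17 for Col12a1 in TD against WT and -0.025 to 0.25 for Col1a1 in TA against WT. Of the chain ratios, Col1a1/Col1a2 in TD against TA ran from -0.016 to 0.035 and Col4a1/Col4a2 in TD against WT from -0.032 to 0.043. Without TA replicate 4 the adjusted p of 6 ratio differences that involve TA was 0.0429, since more of the 12 tests were then at the smallest exact p. That smallest p is 0.0286 for 3 against 4 libraries as for 4 against 4. The 6 were Col1a1/Col1a2 (-0.126 to -0.089), Col3a1/Col1a1 (0.407 to 0.463), Col4a1/Col4a2 (-0.09 to -0.055) and Col6a1/Col6a2 (-0.305 to -0.26) in TA against WT, and Col3a1/Col1a1 (-0.215 to -0.188) and Col6a1/Col6a2 (0.08 to 0.124) in TD against TA, with their ranges over left-out libraries. Col3a1/Col1a1 and Col6a1/Col6a2 in TD against WT, at the same smallest exact p, share that adjustment.

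Same-numbered libraries did not deviate together (correlations from -0.237 to 0.196), so the numbers were not taken as pairs. With a replicate block 18, 7 and 10 genes were called, Col6a6 in TD (adjusted p = 0.0522) and Col3a1 in TA (adjusted p = 0.0535) lost their calls, and no chain ratio could go below an exact sign-flip p of 0.125. Col6a4 and Col19a1 were called only without a filter on low counts. Depth limits the genes with few counts, while for the abundant chains the spread between libraries is the limit. The cause of these changes was not tested.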
